A study of Mus musculus with 13 samples.

Results

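The serpins, a family of protease inhibitors that the liver makes and secretes in large amounts, were examined in the livers of diabetic and control mice. Members were all genes whose probe set carried 1 gene symbol beginning with Serpin, with the probe set of the highest mean taken for each gene. This gave 48 members among the 19938 named genes. They were divided by the clade letter in the symbol, with 15 genes in clade a, 24 in clade b, 2 each in clades f and i, and 1 each in clades c, d, e, g and h. All 48 had 1 probe set only, so no choice between probe sets was needed. A further 5 probe sets named several Serpin genes at once and are described apart. Of 69 Serpin symbols in the RefSeq gene table of the mouse, 21 were not analysed here, among them Serpina1a, Serpina1b, Serpina1e and 11 of the 14 Serpina3 genes and pseudogenes.

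All mice were male C57BL/6N wild-type animals of 5 to 6 months. The 6 STZ mice had received streptozotocin, a glucose analogue toxic to the insulin-producing beta cells, at 65 mg/kg into the peritoneum on 5 days in a row, when they were 10 to 16 weeks old. The 7 controls had received citrate buffer in the same way, and livers were taken 9 to 11 weeks later. The series design text describes the controls by a standard diet instead. As a model, STZ lowers insulin by a chemical injury that can also reach other tissues, and the labels give no glucose or insulin values. Total liver RNA was measured on Affymetrix gene arrays, and the labels call the samples biological replicates. Values are log2 intensities between 2.70 and 14.14, with array medians of 6.22 to 6.31. They carry no read depth, and the number of arrays limits the precision.

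Most serpins inhibit serine proteases as bait. An exposed loop, the reactive centre loop, is cut by the protease, and the serpin then changes shape and traps the enzyme in a covalent complex. Clade a holds secreted plasma serpins such as alpha-1-antitrypsin and, in mice, many duplicated Serpina1 and Serpina3 genes. Clade b serpins lack a classical secretion signal and mostly guard the inside of cells against their own granule and lysosomal proteases. The single-gene clades include antithrombin, heparin cofactor II and C1 inhibitor, which restrain coagulation and complement. Some members inhibit nothing and carry hormones or help fold collagen.

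Each gene was tested with limma, a linear model fitted over all genes, and a gene passed when its Benjamini-Hochberg adjusted p was below 0.05. In bulk liver RNA a change in the number of cells of a type and a change in the RNA per cell cannot be told apart. Of the 48 members 7 passed, beside 9.12% of all genes. Higher in STZ livers were 3, Serpina3n, Serpinb6a and Serpinb9, against a background of 5.09% of genes higher. Lower were 4, Serpina4-ps1, Serpina12, Serpina11 and Serpinb8, against 4.04% of genes lower. The median difference over the members was -0.01 on the log2 scale, and over all genes it was also -0.01. Clade a had 4 of its 15 genes called and clade b 3 of 24, with medians of -0.02 and -0.01. None of the 9 genes of clades c to i passed in limma or in the exact rank-sum test, and 1 of them had an unadjusted limma p under 0.05. Of the 18 members brighter than the median gene 5 passed, where 15.4% of all such genes did, and of the 30 dimmer members 2 passed, where 2.87% of the dimmer genes did. Low intensities on arrays compress differences, and with no detection calls a low value was not read as absence.

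**Figure D1:**
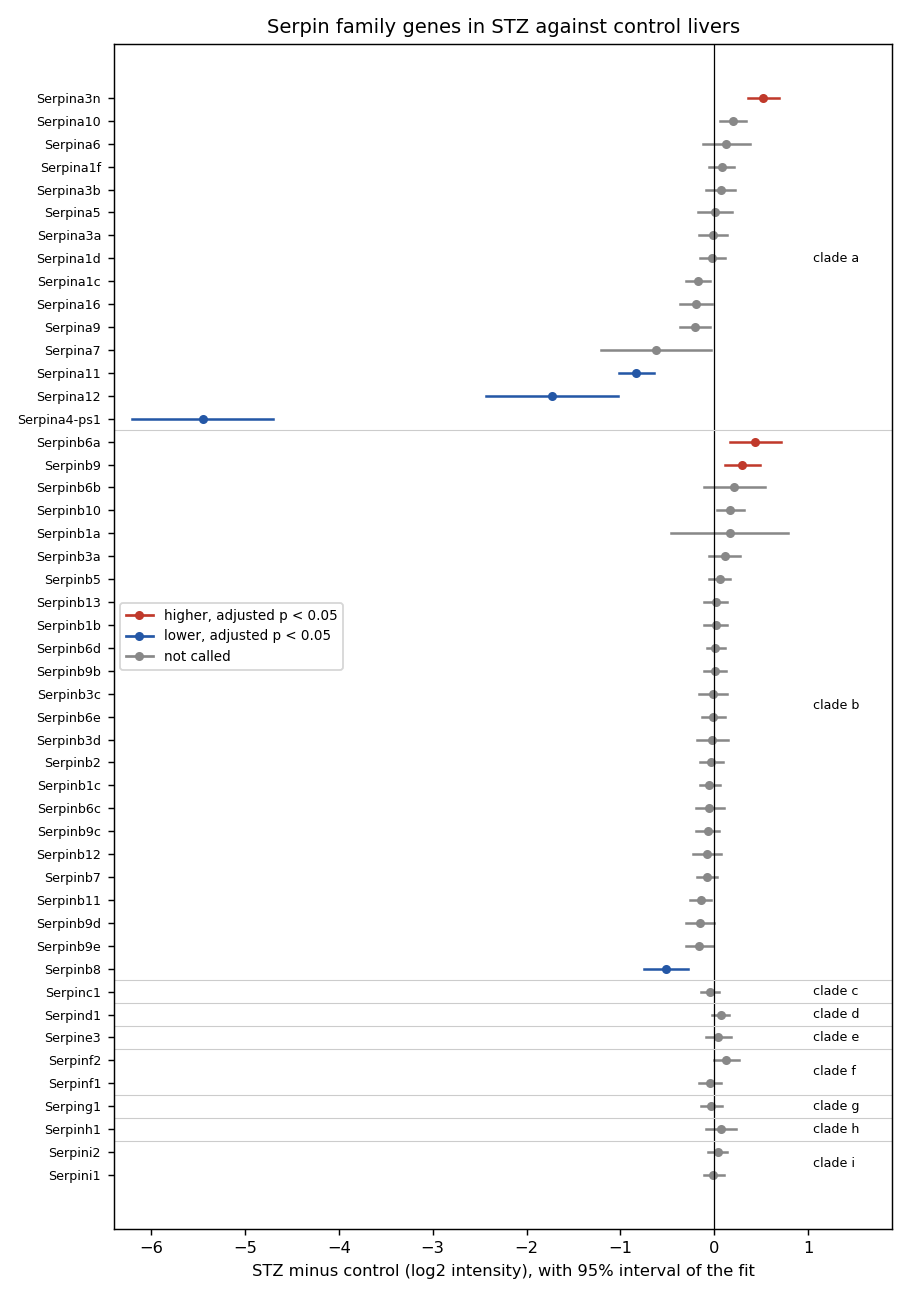
Difference between STZ and control livers for the 48 Serpin genes, grouped by clade, in log2 intensity. Points are the differences and lines the 95% intervals of the limma fit over 7 control and 6 STZ arrays. Serpina4-ps1 lies at -5.45, and most other genes lie near 0.

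The liver identity of the samples was checked with 9 measured hepatocyte markers, whose mean was 13.17 to 13.23 in controls and 13.17 to 13.21 in STZ arrays, with 1 gene higher and 2 lower. Lists of endothelial, stellate, bile duct and pancreatic markers had 1 of 9, 3 of 10, 0 of 6 and 0 of 5 genes called in limma. Beside these counts, 9.12% of all genes were called. The rank-sum test called none in the last pair of lists, where 2 and 1 genes had an unadjusted limma p under 0.05. The array labelled STZ replicate 5 stood apart from the other STZ arrays. It held the highest STZ value for 14 of the 48 members, 7 of them on chromosome 12, and for 15.4% of all genes. It held the lowest for 5 of the 48 members and for 24.6% of all genes. Without it, 8 members passed, where 10.9% of all genes did. For the members whose call changes without it (Serpina10, Serpina1c and Serpinb9), and for Serpina4-ps1, Serpina12, Serpinb1a and Serpinb6b, the value without it stands beside the result.

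The promoters of Serpina11, Serpina12 and Serpina3n are shown because these clade a genes lie in 1 gene cluster and passed in opposite directions. Serpina4-ps1 lies in the same cluster and also passed, but no promoter window was available for it. Sequences run 5′ to 3′ on the strand of the gene, from 250 bases before to 50 bases after the RefSeq start site, in GRCm38.p6. Capitals mark matches to TTCNNNGAA, the element bound by STAT factors, or to AGAACA, the steroid receptor half-site, on either strand.
Serpina11, chr12:103989908-103990207, minus strand: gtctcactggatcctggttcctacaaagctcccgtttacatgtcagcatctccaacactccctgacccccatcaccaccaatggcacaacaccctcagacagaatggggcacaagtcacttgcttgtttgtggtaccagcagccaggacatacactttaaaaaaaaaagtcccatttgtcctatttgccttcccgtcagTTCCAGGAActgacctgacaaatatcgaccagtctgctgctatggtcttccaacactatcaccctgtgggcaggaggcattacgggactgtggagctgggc
Serpina12, chr12:104044394-104044693, minus strand: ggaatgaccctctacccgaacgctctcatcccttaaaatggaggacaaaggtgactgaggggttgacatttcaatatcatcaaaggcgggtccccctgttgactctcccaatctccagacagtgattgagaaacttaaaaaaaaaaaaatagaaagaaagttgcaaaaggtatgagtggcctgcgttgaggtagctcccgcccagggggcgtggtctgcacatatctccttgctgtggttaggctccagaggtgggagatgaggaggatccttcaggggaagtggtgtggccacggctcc
Serpina3n, chr12:104406458-104406757, plus strand: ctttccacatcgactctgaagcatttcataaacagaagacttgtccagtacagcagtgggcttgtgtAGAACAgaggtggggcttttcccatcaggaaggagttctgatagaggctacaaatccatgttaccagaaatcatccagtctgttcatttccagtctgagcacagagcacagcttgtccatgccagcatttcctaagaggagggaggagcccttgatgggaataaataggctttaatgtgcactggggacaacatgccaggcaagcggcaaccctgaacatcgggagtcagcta

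The Serpina11 window held TTCNNNGAA as TTCCAGGAA with its first base at -51 from the start site, and the Serpina3n window held AGAACA at -183. RefSeq gives a second Serpina11 start, whose overlapping window holds the same TTCNNNGAA match. The Serpina12 window held neither, and none of the 3 windows held GTTAAT, the half-site of the liver factor HNF1. The motifs were chosen after the sequences had been seen, and a match is a description of letters only. Among 32851 promoter windows of 300 bases, 8.30% held TTCNNNGAA, 19.0% AGAACA and 7.10% GTTAAT. Of the members, 41 had promoter windows, 49 in all, of which 7 held TTCNNNGAA, 17 AGAACA and 7 GTTAAT. TTCNNNGAA was found in 5 members, Serpina11, Serpina1f, Serpinb2, Serpinb6a and Serpinb9c, of which Serpina11 fell and Serpinb6a rose.

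Serpina4-ps1, a transcribed pseudogene in the RefSeq table, was the member with the largest difference. Its control values had a lowest of 11.22, a median of 11.50 and a highest of 11.96. Its STZ values were 5.52, 5.50, 5.75, 5.69, 8.31 and 5.63 in replicates 1 to 6. All 6 STZ arrays lay below all 7 controls, and replicate 5 lay between the groups. The difference was -5.45 ± 0.36 in log2 units, where ± marks the standard error of the model here and below unless SD is written. The mean went from 11.52 ± 0.28 (SD, n = 7) to 6.07 ± 1.11 (SD, n = 6), and the adjusted p was 2.27e-07 in limma. This is 43.8-fold on the scale of the intensities, a size that compression at the low end can change. Without STZ replicate 5 the difference was -5.90. Serpina4-ps1 makes no known inhibitor, and its probes may also bind transcripts of related clade a genes.

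Serpina12, which encodes vaspin, a secreted serpin known from adipose tissue, also fell. The controls had a lowest of 6.74, a median of 7.23 and a highest of 7.51. The STZ values were 5.04, 5.17, 5.26, 4.40, 7.33 and 4.95. In 5 of 6 STZ arrays the value lay below all controls, while replicate 5 lay inside the control range, so the groups overlapped. The difference was -1.73 ± 0.33 with an adjusted p of 0.00309 in limma, and the adjusted p was 0.212 in the exact rank-sum test. Without STZ replicate 5 it was -2.12, with an adjusted p of 3.44e-07 in limma.

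Serpina11, a secreted serpin with little known about its targets, fell in every STZ array. The controls had a lowest of 8.36, a median of 8.61 and a highest of 8.73. The STZ values were 7.56, 7.96, 7.73, 7.55, 8.0 and 7.55, all below the controls. The difference was -0.83 ± 0.09, from 8.55 ± 0.14 (SD, n = 7) to 7.72 ± 0.21 (SD, n = 6), with an adjusted p of 1.97e-05 in limma. Its highest STZ value was again that of replicate 5.

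These 3 genes are neighbours. In the RefSeq order of the 28 Serpin genes on chromosome 12, of which 14 were measured, Serpina11 is followed by Serpina9, Serpina12, Serpina4-ps1 and Serpina5. Serpina9, a gene of germinal centre B cells, had a difference of -0.20 ± 0.08 with an adjusted p of 0.119, between a control range of 4.94 to 5.49 and an STZ range of 4.87 to 5.08. Serpina5, which encodes protein C inhibitor, had a difference of 0.01 ± 0.08 with an adjusted p of 0.958. Its STZ replicate 5 was 5.59, while the other 5 STZ arrays lay between 5.02 and 5.13. Both are dim genes, in which a difference could be hidden. On the other side of Serpina11 the nearest measured gene is Serpina1c, with a difference of -0.17 ± 0.06. The genes at the start of the cluster, Serpina10, Serpina6, Serpina16 and Serpina1f, had differences between -0.19 and 0.20 and none passed.

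**Figure D2:**
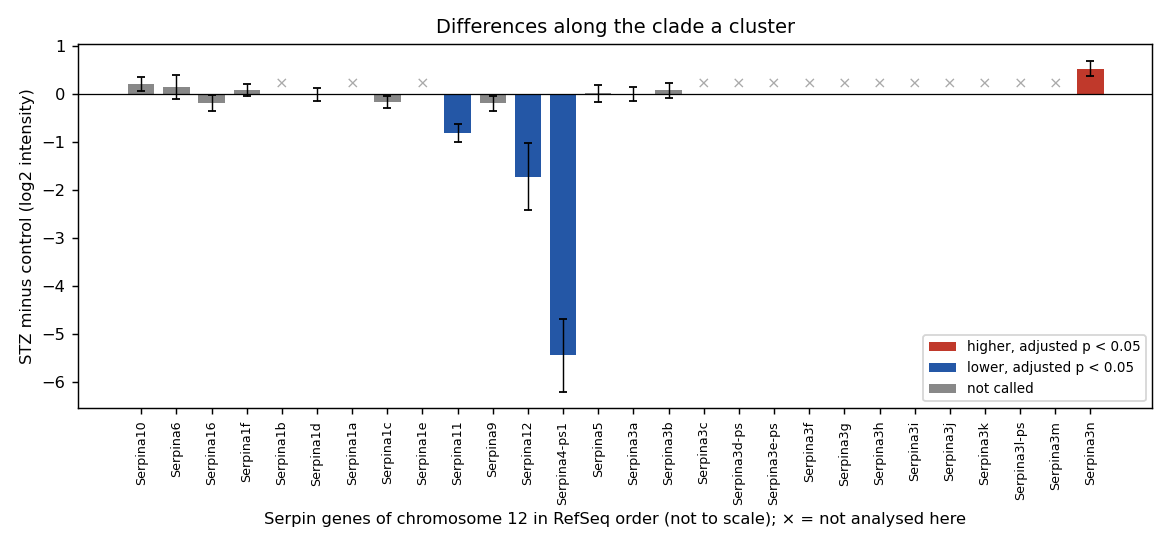
Difference between STZ and control livers (log2 intensity) of the Serpin genes of chromosome 12, in the order of the RefSeq table and not to scale. Bars are differences with 95% intervals of the limma fit, and crosses mark genes not analysed here. Serpina11, Serpina12 and Serpina4-ps1 are lower, and Serpina3n, at the other end of the Serpina3 genes, is higher.

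Serpina3n was the clade a gene that rose. It is one of the mouse relatives of alpha-1-antichymotrypsin, an acute phase protein, and can inhibit granzyme B and leukocyte elastase. The controls had a lowest of 12.25, a median of 12.32 and a highest of 12.40. The STZ values were 12.59, 13.17, 12.78, 13.01, 12.72 and 12.82, all above the controls. The difference was 0.52 ± 0.08, or 1.44-fold, with an adjusted p of 4.19e-04 in limma. The spread was wider in STZ livers, with an SD of 0.21 against 0.06.

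The other Serpina3 genes measured were Serpina3a and Serpina3b. Their differences were -0.01 ± 0.07 and 0.07 ± 0.07, with adjusted p of 0.954 and 0.693 in limma. Serpina3a lay between 4.84 and 5.28 over all arrays and Serpina3b between 4.73 and 5.24, in the dim range. The Serpina3 paralogs are close copies, so part of the Serpina3n signal can come from transcripts of neighbours that were not analysed here. Whether Serpina3n differed from Serpina3a or Serpina3b in its change was not tested.

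The Serpina1 genes encode alpha-1-antitrypsin, the main plasma inhibitor of neutrophil elastase, in several near-identical copies. Serpina1c had a lowest control value of 13.21, a median of 13.27 and a highest of 13.35. Its STZ values were 13.06, 13.06, 13.14, 12.90, 13.35 and 13.09. In 5 of 6 STZ arrays it lay below all controls, and replicate 5 lay at the top of the control range. The difference was -0.17 ± 0.06 with an adjusted p of 0.110 in limma, and without STZ replicate 5 it was -0.22 with an adjusted p of 0.0121. Serpina1d had a difference of -0.02 ± 0.06, with a 95% interval of -0.15 to 0.12.

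Of the probe sets with several symbols, 2 covered Serpina1a to Serpina1e together. One was 13.11 ± 0.03 (SD, n = 7) in controls and 13.02 ± 0.09 (SD, n = 6) in STZ livers, and the other 13.63 ± 0.05 and 13.58 ± 0.03. Their differences were -0.09 ± 0.05 and -0.05 ± 0.04, with adjusted p of 0.391 and 0.615 in limma over all 35556 probe sets. These signals are close to the top of the array's range, where differences can be compressed as well. Serpina1f, a diverged copy known from the epididymis, was dim, with a difference of 0.08 ± 0.06.

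Of the hormone carriers of clade a, Serpina6 encodes corticosteroid-binding globulin and Serpina7 thyroxine-binding globulin. Serpina6 lay between 12.20 and 12.73 in controls and between 12.30 and 12.95 in STZ livers, with overlapping groups. Its difference was 0.13 ± 0.12 with a 95% interval of -0.12 to 0.38 and an adjusted p of 0.616. Serpina7 had a lowest control value of 8.95, a median of 9.71 and a highest of 9.97. Its STZ values were 7.53, 9.20, 9.77, 8.85, 9.62 and 9.17, so that only replicates 1 and 4 lay below the controls. The difference was -0.62 ± 0.28 with an adjusted p of 0.212 in limma, and -0.32 at the smallest when 1 array was left out, without STZ replicate 1.

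Serpina10, the protein Z-dependent inhibitor of activated factor X, was higher than all controls in 5 of 6 STZ arrays without passing. Its controls lay between 10.11 and 10.40, and its STZ values were 10.46, 10.60, 10.42, 10.47, 10.25 and 10.68. The difference was 0.20 ± 0.07 with an adjusted p of 0.0700 in limma. Without STZ replicate 5, the array that lay within the controls, it was 0.25 with an adjusted p of 0.0143. It also passed when only genes brighter than the median gene were fitted, with an adjusted p of 0.0427 in limma. Serpina16 was dim, with a difference of -0.19 ± 0.08 and an adjusted p of 0.174.

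The plasma serpins of the small clades varied little between arrays. Serpinc1 encodes antithrombin, the main inhibitor of thrombin, and lay between 12.79 and 12.91 in controls and between 12.75 and 12.88 in STZ livers. Its difference was -0.04 ± 0.04 with a 95% interval of -0.14 to 0.05. Serpind1, heparin cofactor II, another thrombin inhibitor, had control values of 12.30 to 12.38 and STZ values of 12.35 to 12.52. The difference was 0.07 ± 0.04 with an interval of -0.02 to 0.16. Of the STZ arrays, 2 lay below all controls for Serpinc1 and 4 above all controls for Serpind1.

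Serpinf2 encodes the plasmin inhibitor antiplasmin and Serpinf1 the non-inhibitory pigment epithelium-derived factor. Serpinf2 lay between 12.12 and 12.36 in controls and between 12.24 and 12.51 in STZ livers, with a difference of 0.13 ± 0.06 and an adjusted p of 0.235. Serpinf1 had a difference of -0.04 ± 0.05 with an interval of -0.16 to 0.07. Serping1, C1 inhibitor, which blocks the first complement proteases and plasma kallikrein, lay between 12.54 and 12.68 in controls and between 12.44 and 12.72 in STZ livers. Its difference was -0.03 ± 0.05 with an interval of -0.14 to 0.08. None of these genes passed in limma, which does not show that they were equal.

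**Figure D3:**
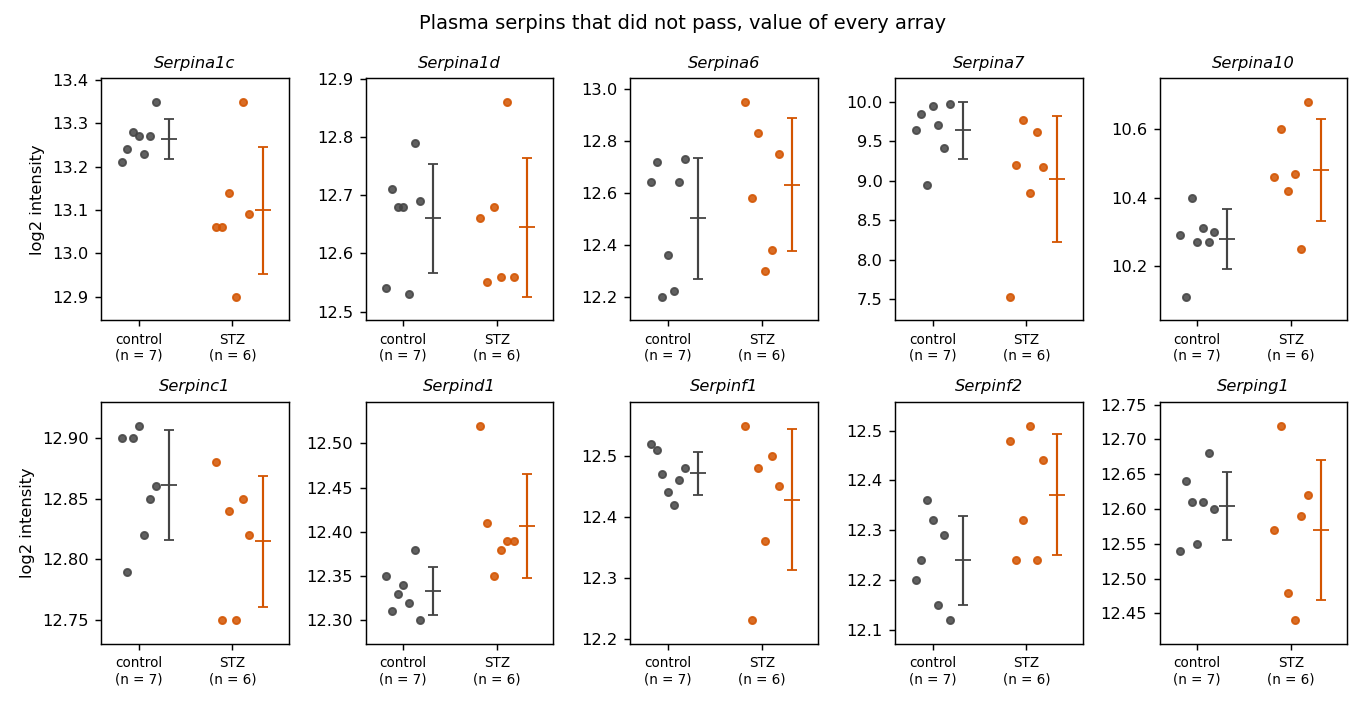
Log2 intensity of 10 plasma serpin genes in each array of 7 control and 6 STZ livers, with the mean and SD beside the points and a separate scale for each gene. The groups overlap in all 10 panels, and single STZ arrays stand apart in some, such as STZ replicate 1 in Serpina7 at 7.53.

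Serpinh1, HSP47, is a collagen chaperone of the endoplasmic reticulum and inhibits no protease. It lay between 6.96 and 7.38 in controls and between 7.08 and 7.36 in STZ livers, with a difference of 0.07 ± 0.08 and an adjusted p of 0.664. Of the 14 genes measured for collagen and its folding, 0 passed in limma, 0 had an unadjusted p under 0.05 and 0 passed in the rank-sum test. The gene with the smallest p was Col4a1 (0.09 ± 0.05). Serpini1, neuroserpin, Serpini2, a pancreatic serpin, and Serpine3 were dim, and their differences were -0.01 ± 0.05, 0.04 ± 0.05 and 0.04 ± 0.06. In clade e only Serpine3 was analysed here.

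Clade b held 3 of the called members, all with overlapping groups. Serpinb8, an intracellular serpin that inhibits furin, fell. Its controls had a lowest of 5.71, a median of 6.10 and a highest of 6.28, and its STZ values were 5.78, 5.25, 5.73, 5.29, 5.47 and 5.65. In 4 of 6 STZ arrays it lay below all controls. The difference was -0.51 ± 0.11 with an adjusted p of 0.00785 in limma and of 0.0628 in the exact rank-sum test. It kept its call in all 13 fits that left out 1 array.

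Serpinb6a, a broadly made inhibitor of cathepsin G and trypsin-like proteases, was higher. The controls had a lowest of 7.07, a median of 7.59 and a highest of 7.67, and the STZ values were 8.18, 8.06, 7.45, 8.35, 7.74 and 7.91. Replicate 3 lay within the controls and the other 5 above them. The difference was 0.44 ± 0.13 with an adjusted p of 0.0402 in limma. When each array was left out in turn, 10 of 13 fits did not call it, with differences of 0.36 to 0.54 over the 13. It held only without control replicate 6, STZ replicate 3 or STZ replicate 5, and the adjusted p was between 0.00587 and 0.0991.

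Serpinb9 inhibits granzyme B and protects lymphocytes and other cells from their own or incoming cytotoxic granules. The controls had a lowest of 6.52, a median of 6.69 and a highest of 6.94, and the STZ values were 7.10, 6.92, 6.74, 7.08, 7.28 and 6.92. In 3 of 6 STZ arrays it lay above all controls. The difference was 0.30 ± 0.09 with an adjusted p of 0.0386 in limma. It was not called in 9 of 13 such fits, with differences of 0.25 to 0.36 and adjusted p up to 0.0869. Without STZ replicate 5 the difference was 0.25 with an adjusted p of 0.0718. The call held only without control replicate 2, control replicate 6, STZ replicate 2 or STZ replicate 3. In the exact rank-sum test the adjusted p was 0.212 for Serpinb6a and 0.122 for Serpinb9.

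Clade b genes are made by leukocytes as well as by hepatocytes. Of 10 macrophage and Kupffer cell markers, 4 were higher (Cd5l, Cd68, Vsig4 and Clec4f), beside 5.09% of all genes. The mean of the 10 was 8.36 to 8.83 in controls and 8.54 to 9.19 in STZ arrays. Of 11 lymphocyte markers, Ptprc was higher and Cd4 lower, where 9.12% of all genes were called. Their mean was 5.42 to 5.64 in controls and 5.31 to 5.81 in STZ arrays. Of 10 neutrophil and mast cell markers 0 passed in limma and 0 in the rank-sum test, 2 had an unadjusted limma p under 0.05, and the means were 5.15 to 5.26 and 5.19 to 5.37. When each array was left out in turn, the call was lost in 9 of 13 fits for Ptprc, 7 for Cd68, 6 for Cd4, 4 for Clec4f and 1 for Vsig4. None of these genes passed in the rank-sum test, with adjusted p of 0.212, 0.161, 0.0875, 0.0875 and 0.122. Cd5l kept its call in all 13 fits but lost it in 2 of the 8 fits with other settings. The part of these cells in the values of Serpinb6a and Serpinb9 was not tested.

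**Figure D4:**
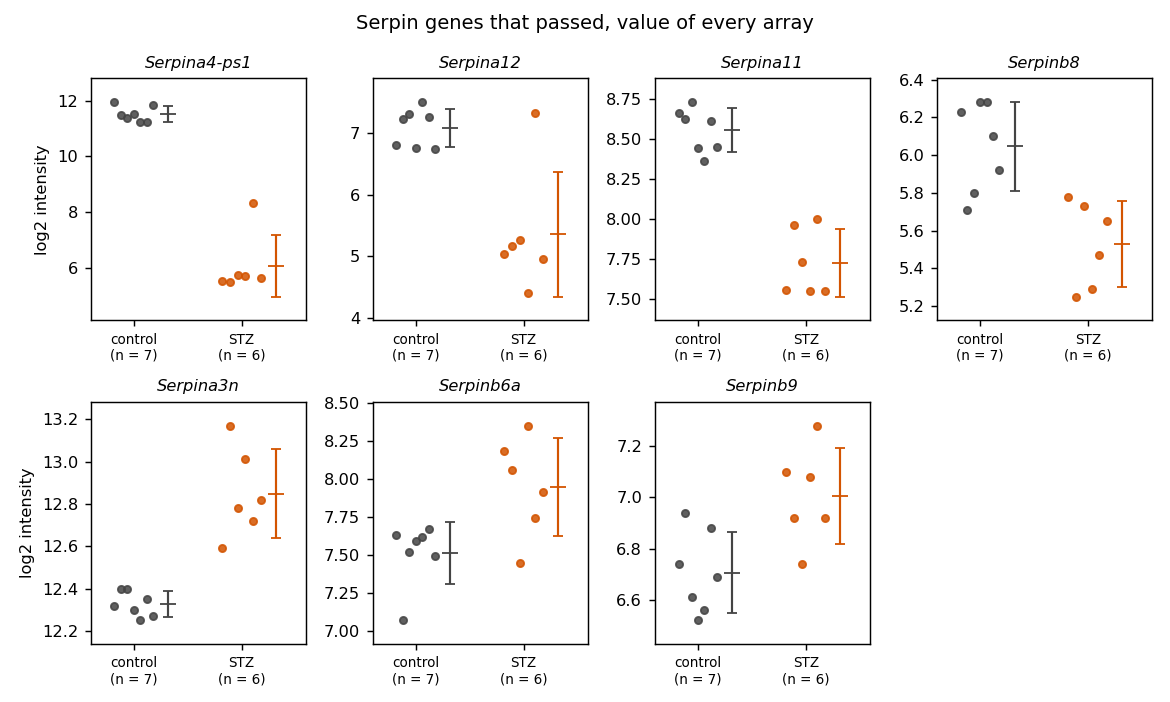
Log2 intensity in each array for the 7 Serpin genes that passed, in 7 control and 6 STZ livers, with the mean and SD beside the points and a separate scale for each gene. The groups do not overlap for Serpina4-ps1, Serpina11 and Serpina3n, and in Serpina12 STZ replicate 5 lies at 7.33 among the controls.

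The other clade b members spanned differences of -0.16 to 0.21. Serpinb6b, a close relative of Serpinb6a, was 0.21 ± 0.15 with an adjusted p of 0.491, and 0.10 without STZ replicate 5. Serpinb1a, an inhibitor of neutrophil elastase and cathepsin G, was the most variable of the uncalled clade b genes. Its controls lay between 6.41 and 7.31, and its STZ values were 7.29, 5.91, 7.20, 6.54, 8.11 and 8.11. The STZ arrays lay on both sides of the controls, with 2 above and 1 below all of them, and the difference was 0.17 ± 0.29. Its sign and size turned on single arrays, with -0.02 without STZ replicate 5 or STZ replicate 6, 0.06 without control replicate 3, 0.30 without STZ replicate 4 and 0.42 without STZ replicate 2. With STZ label numbers 29 to 32 only, which leaves out STZ replicates 5 and 6, the Serpinb1a difference was -0.29.

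Of the 24 clade b members 20 were no brighter than the median gene. Serpinb11 was below all controls in 6 of 6 STZ arrays, with 3.76 to 4.03 in controls and 3.65 to 3.74 in STZ livers. Its difference of -0.14 ± 0.05 had an adjusted p of 0.104 in limma and of 0.0302 in the exact rank-sum test. Groups did not overlap for 4 of the 48 members and for 3.86% of all genes. Of these, Serpina3n was higher, beside 2.30% of all genes, and Serpina4-ps1, Serpina11 and Serpinb11 were lower, beside 1.56%. The 3 probe sets shared by Serpinb9d, Serpinb9e, Serpinb9f and Serpinb9g had differences of -0.01 to 0.04. The members of the Serpinb3 group and maspin (Serpinb5), known from squamous and other epithelia, had differences of -0.02 to 0.11, and none passed.

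The members also differed in spread. The SD among STZ arrays was above that among controls for 32 of the 48 members and for 61.6% of all genes. It was at least 2 times as large for 10 members and for 15.4% of all genes. Serpina4-ps1 had a ratio of 3.92, Serpina3n of 3.40, Serpina12 of 3.26, Serpina1c of 3.24 and Serpinf1 of 3.07. STZ replicate 5 weighs on some of these ratios. In Serpina4-ps1 it lay at 8.31, while the other STZ arrays spanned 5.50 to 5.75, a narrower range than the 11.22 to 11.96 of the controls. In Serpina12 it lay at 7.33 and the others between 4.40 and 5.26, and in Serpina1c it was also the highest STZ array. Ratios without it were not computed. No test of the spread was made.

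Target proteases and partners of the serpins were read from fixed lists, chosen with earlier results of these data known. Beside the counts of these and the later lists, 9.12% of all genes were called, 5.09% higher and 4.04% lower. Among the genes brighter than the median gene 15.4% were called. No list test was run, and a count near these shares was not read as a result about the list. Of 17 coagulation genes 2 were higher and 1 lower, with a list median of 0.07. The higher genes were kininogen 2, Kng2 (0.42 ± 0.07) and protein S, Pros1 (0.30 ± 0.09), and the lower gene was factor XI, F11 (-0.73 ± 0.14). Of 9 fibrinolysis genes Hrg, a plasma protein that binds plasminogen, was higher (0.34 ± 0.06). Of 12 complement genes C1qa (0.35 ± 0.09) and C1qc (0.49 ± 0.13), which macrophages make, were higher, and C1s1, a target of C1 inhibitor, was lower (-0.36 ± 0.11). Several of these calls lay near the threshold. When each array was left out in turn, 12 of 13 fits did not call C1s1, 11 did not call Pros1, and 6 each did not call C1qa and C1qc. In the rank-sum test none of these 4 genes passed, with adjusted p of 0.262, 0.262, 0.122 and 0.161.

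Among the intracellular and granule proteases, 6 of 9 lysosomal cysteine proteases were higher and none lower, with a median of 0.31. Cathepsin C, Ctsc (0.84 ± 0.09), which activates granule serine proteases, led them, followed by Ctss (0.59 ± 0.15), Lgmn (0.53 ± 0.10) and Ctsl (0.41 ± 0.09). All 4 kept their calls when 1 array was left out. Ctss, Lgmn and Ctsl each lost the call in 1 of the 8 fits with other settings, and Ctsc in 0. Macrophages are rich in these proteases, and 4 of 10 macrophage markers were called higher in limma, each losing its call under some other settings. Their part in this was not tested. Of 10 neutrophil and cytotoxic granule proteases 0 passed in limma and 0 in the rank-sum test, and 2 had an unadjusted limma p under 0.05. Gzmb, the target of Serpinb9, was 0.25 ± 0.09 with an adjusted p of 0.101. Of 8 hepatocyte serine proteases Tmprss2 was higher (1.01 ± 0.15) and Hgfac, the activator of hepatocyte growth factor, lower (-0.62 ± 0.09).

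Of 20 other secreted protease inhibitors 4 were higher and 2 lower. Itih3 (0.60 ± 0.15) and the metalloprotease inhibitor Timp1 (0.34 ± 0.08) were higher, and the alpha-macroglobulin relative Mug2 (-0.70 ± 0.18) and Tfpi2 (-0.51 ± 0.12) lower. Of 24 acute phase genes 8 were higher and 1 lower, with a median of 0.31. Those with the largest differences were Mt2 (3.81 ± 0.26), Lcn2 (3.21 ± 0.40), Mt1 (3.05 ± 0.32) and Orm2 (2.90 ± 0.25), beside 0.52 ± 0.08 for Serpina3n. The gene that was lower was Saa4 (-0.43 ± 0.11). Of 14 genes of IL-6 and STAT3 signalling, Stat3 (0.64 ± 0.11), Socs3 (0.46 ± 0.10) and Lepr (1.24 ± 0.37) were higher. Lepr lost its call in 10 of the 13 fits without 1 array, and Mug2 in 2. Under the other settings Itih3, Mug2 and Socs3 each lost the call in 2 of 8 fits, and Tfpi2 in 1 of 8. Lepr lost it in 2 of 7 such fits and Timp1 in 1 of 7. Socs3 did not pass when its probe sets were averaged, with an adjusted p of 0.0651 in limma.

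For the hormone carriers, 3 of 10 genes of the glucocorticoid axis were higher and 1 lower. Sgk1 (0.90 ± 0.18), Fkbp5 (0.74 ± 0.22) and Pck1 (0.59 ± 0.10) were higher, and the glucocorticoid receptor gene Nr3c1 (-0.23 ± 0.06) was lower. Of 9 genes of the thyroid hormone axis 4 were lower and 1 higher. Dio1 (-2.73 ± 0.40), which makes active thyroid hormone, Thrsp (-2.36 ± 0.33), Me1 (-1.95 ± 0.29) and the carrier Ttr (-0.18 ± 0.05) were lower, and the transporter Slc16a10 (0.74 ± 0.10) higher. Of these, Ttr lost its call in 11 of the 13 fits without 1 array, Fkbp5 in 10 and Nr3c1 in 7. The groups did not overlap for Ttr, and it passed in the exact rank-sum test with an adjusted p of 0.0302. Fkbp5 and Nr3c1 did not pass in that test, each with an adjusted p of 0.161. Serpina6 and Serpina7, the carriers themselves, did not pass.

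Sex-biased liver genes are given here because of the place of STZ replicate 5 in them. Their lists were chosen with earlier results of these data known, so the counts are a description only. Of 17 male-biased genes 15 were lower, with a median of -1.49, and of 15 female-biased genes 12 were higher, with a median of 0.76. STZ replicate 5 held the highest STZ value in 17 of the 17 male-biased genes and the lowest in 12 of the 15 female-biased genes. It was far from the other STZ arrays in Hsd3b5 and Slco1a1, at 10.31 and 10.32, while the others lay between 4.71 and 5.03 and between 5.21 and 5.41. The same array was the highest in Serpina4-ps1 and Serpina12, far from the rest, and in Serpina11, where replicate 2 lay close to it at 7.96. Of 11 genes of growth hormone signalling, which sets this sex bias, Ghr (-0.57 ± 0.10), Bcl6 (-1.37 ± 0.33) and Igfals (-0.43 ± 0.12) were lower and Cux2 (0.66 ± 0.19) higher. Cux2 lost its call in 10 of the 13 fits without 1 array and Igfals in 4, and Bcl6 and Cux2 did not pass in the rank-sum test. Whether these genes have a part in the values of the serpins was not tested.

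**Figure D5:**
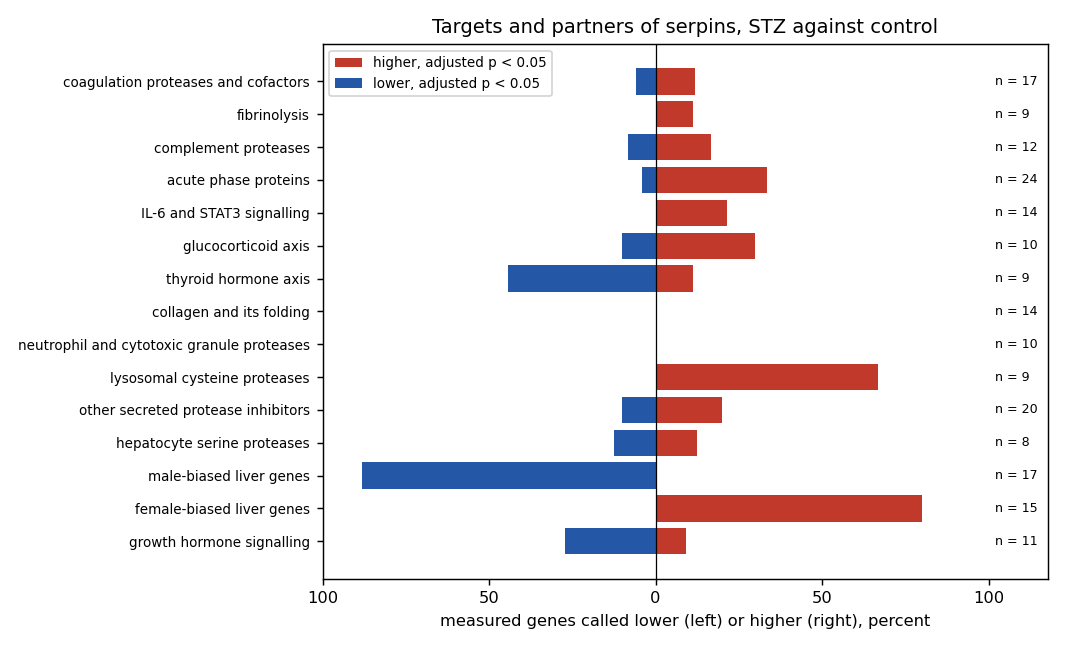
Percent of the measured genes of each fixed list that were called lower (left) or higher (right) in STZ livers in limma, with the number measured at the right. The lysosomal cysteine proteases have 6 of 9 genes higher, and no collagen or granule protease gene was called. Over all genes 4.04% were called lower and 5.09% higher.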

How the data were processed

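Affymetrix gene arrays measured liver RNA, 1 array for each of 7 control and 6 STZ samples. The values, 1 log2 intensity for each of 35556 probe sets, were used as deposited. The submitters' processing notes name RMA, which corrects background, equalises array distributions and summarises probes, and Affymetrix Expression Console 1.2. A change in total RNA per cell is lost in this step. For the annotation version and the build, the sources used here say nothing.

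The platform annotation gave 21789 probe sets 1 symbol and 1621 several, and did not list 12146. The brightest probe set of each symbol gave 19938 genes. All 48 members matched the RefSeq table (GRCm38.p6) by Entrez identifier; RefSeq served for biotype, gene order and promoters. Groups were compared in limma 3.58.1 (R 4.3.3, lmFit and eBayes, two-sided, 11 residual degrees of freedom before moderation) without a filter, adjusted over all genes. On simulated arrays this fit called 93% of 100 genes changed by 0.5 log2 units, 99% of 100 changed by 1, and 13 unchanged genes. The simulation used independent normal noise, with the same SD in both groups for each gene and no array that stood apart. In the real arrays the STZ SD was the larger for 61.6% of genes and STZ replicate 5 stood apart, so these shares may not hold for them. Alternatives were trend and robust variance, a brightness filter, median centring, a further quantile step and the mean of probe sets. A rank-sum test with exact p-values (tied ranks rounded toward the larger p) was also run. Further fits left out each array, took STZ label numbers 29 to 32 only, or used a replicate block without control replicate 7.

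Members, lists and tests were chosen with earlier results of these data known. Values were given for each called member and for a fixed set of other members. From each list up to 4 passing genes with the largest differences were named, or the gene with the smallest p where none passed. Saa4, Ttr, the chromosome 12 neighbours and the marker genes were named after their values were seen.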

Additional observations from a re-analysis of the deposited data

Results flagged for a closer look

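Single arrays lay far from the rest of their group, by the gap to the nearest array against the range of the group, in 14 cases over 204 groups tested, the control and the STZ group of each member and each gene chosen from the lists. Chance gives such a case in about 1 of 20 groups, so many of the 14 may be of that kind. STZ replicate 5 accounted for the Serpin genes Serpina12 (7.33, others 4.40 to 5.26), Serpina4-ps1 (8.31, others 5.50 to 5.75), Serpina5 (5.59, others 5.02 to 5.13) and Serpinb1c (4.22, others 4.00 to 4.06), all higher than the other STZ arrays. Serpina12, Serpina4-ps1 and Serpina5 follow each other on chromosome 12. The same array stood apart in Hsd3b5 (10.31), Slco1a1 (10.32) and Cyp2b9 (9.40, others 12.81 to 13.01), the last lower than the rest.

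Control replicate 2 was lowest in Serpina10 (10.11, others 10.27 to 10.40), Serpinb6a (7.07, others 7.49 to 7.67) and Ctsl (11.71, others 11.97 to 12.13), and highest in Serpina1f (5.37, others 5.03 to 5.16) and Serpinb3c (4.39, others 3.95 to 4.11). Without it the Serpinb6a difference was 0.36 and did not pass. Control replicate 3 was highest in Serpina5 (5.37, others 5.04 to 5.17) and lowest in Cux2 (6.34, others 6.59 to 6.79).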

How the results depend on the processing

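The count of 7 called members, 3 higher and 4 lower, stood under trend and robust variance, median centring, a further quantile step and the mean of probe sets. Under these settings 8.45% to 9.81% of all genes passed. The exact rank-sum test called 4 members, 1 of them higher. These were Serpina4-ps1, Serpina11, Serpina3n and Serpinb11, the last of which limma did not call. Serpina12, Serpinb8, Serpinb6a and Serpinb9 did not pass in the rank-sum test. This test called 5.46% of all genes, where limma called 9.12%. Of 191 list genes it called 23 higher and 14 lower, where limma called 41 and 29. With the fit limited to the brighter part of the genes, which leaves out 30 members, 18.6% of the genes passed. Of the members 4 were higher (Serpina10 passed as well) and 2 lower, their median was 0.07 and that of clade b 0.26. The replicate block fit left out control replicate 7, which has no STZ array of the same number. In it 1 member was higher, and the adjusted p was 0.0695 for Serpinb6a and 0.109 for Serpinb9 in limma. Without control replicate 7 and with no block, 1 member was also higher and neither of these genes passed. The loss of their calls can therefore not be credited to the block. Deviations of same-numbered arrays correlated at -0.086 to 0.187. Without such values for differently numbered arrays, this does not show whether the numbers pair the samples. Leaving out each array in turn gave 1 to 3 members higher, 4 to 5 lower and 5 to 8 in all, beside 7.02% to 10.9% of all genes. With STZ label numbers 29 to 32 only, 8 members and 9.96% of all genes passed. Among them were Serpina10 (0.21, adjusted p = 0.0435) and Serpina1c (-0.23, adjusted p = 0.0198) in limma, while Serpinb9 (0.26, adjusted p = 0.104) did not pass. Control label numbers were 1 to 7, and STZ label numbers were 29 to 32, 40 and 42. A batch that set the control numbers apart from the STZ numbers cannot be told apart from the treatment. STZ replicates 5 and 6 carry the numbers 40 and 42, so the array that stood apart, replicate 5, is outside the run of 29 to 32. Whether a batch separates these 2 arrays from the other STZ arrays was not tested. Dim signals, and those near the top of the range, limit which differences can be seen.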
